A study of Arabidopsis thaliana with 12 samples.

Results

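The 26S proteasome is the protease that degrades ubiquitin-tagged proteins in the cytosol and nucleus of plant cells. The 50 Arabidopsis genes described here encode its subunits and were taken by locus code from a count table of 33602 loci. They comprise 12 genes of the alpha ring and 11 of the beta ring of the core particle, and 10 RPT ATPase genes and 17 RPN genes of the regulatory particle. All 50 passed the filter on low counts, which left 18967 genes to test. RefSeq gives 36 of them the names used here. The other 14 carry other symbols or only the locus code there, among them PBE2 (AT3G26340), RPT6B (AT5G20000), RPN2A (AT2G32730), RPN2B (AT1G04810), RPN6 (AT1G29150), RPN8B (AT3G11270), RPN9A (AT5G45620), RPN9B (AT4G19006) and RPN11 (AT5G23540).

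In the core particle, 7 alpha subunits form the outer rings that gate the channel, and beta subunits form the inner rings, where beta1, beta2 and beta5 carry the peptidase sites. The regulatory particle binds ubiquitin chains, removes them and unfolds the substrate. Its RPT subunits are ATPases that drive unfolding, RPN10 and RPN13 are ubiquitin receptors, RPN11 is the deubiquitinase, and RPN1 and RPN2 are the large scaffold subunits. Arabidopsis encodes many subunits by a pair of paralogous genes. Loss of proteasome capacity raises subunit transcripts in plants through the transcription factors NAC53 and NAC78.

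Messenger RNA was sequenced from leaves of 3-week-old plants of the Columbia-0 ecotype in 4 groups of 3 libraries, each library from the pooled leaves of 15 plants. The groups were cat2-2 gox2 after high light, cat2-2 gox2 under high CO2, cat2-2 gox1 after high light and cat2-2 gox1 under high CO2, called cat2 gox2 and cat2 gox1 below. All plants carried the mutation of CATALASE 2, which removes photorespiratory hydrogen peroxide, together with a mutation of one GLYCOLATE OXIDASE gene, whose product makes that peroxide, and no line had an intact CATALASE 2. High light meant 3 h in ambient air (400 ppm CO2) at an irradiance of 1200 µmol photons per square metre and second, after growth in air with 3000 ppm CO2 at 120 µmol, the high CO2 condition. Light, CO2 and elapsed time changed together and cannot be told apart, so high light stands for the whole change. The comparisons ask how each line answers high light and whether the lines differ. The 3 libraries of a group come from repeats of the experiment, per the labels.

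Library totals lay between 19571516 and 25314811 counts, and 1 count was worth at most 0.0526 CPM (counts scaled to a common library size). The mutated GOX2 had 7.48, 122 and 6.98 CPM in the 3 cat2 gox2 high light libraries, so library 2 stood apart, and 570, 653 and 451 CPM in cat2 gox1 after high light. Under high CO2, the median of the subunit genes in library 3 was 0.172 above the other libraries of the group in cat2 gox2 and 0.091 above in cat2 gox1 (log2). Leaf mesophyll markers were lower after high light, 5 of 5 in each line, with summed levels of 23130 to 30480 CPM in cat2 gox2 after high light, 44460 to 68850 CPM in cat2 gox2 under high CO2, 17460 to 29080 CPM in cat2 gox1 after high light and 40270 to 60400 CPM in cat2 gox1 under high CO2. None of 5 dividing-cell markers was called in either line, and their summed levels were 8.678 to 22.61 CPM over all libraries. Of 4 guard cell markers, 1 was higher and 2 were lower in each line, with summed levels of 46.98 to 63.32 CPM in cat2 gox2 after high light, 45.32 to 57.21 CPM in cat2 gox2 under high CO2, 51.48 to 54.28 CPM in cat2 gox1 after high light and 49.86 to 54.39 CPM in cat2 gox1 under high CO2. Of 3 phloem markers, 0 were called in cat2 gox2 and 2 were lower in cat2 gox1, with summed levels of 198.1 to 270.4 CPM in cat2 gox2 after high light, 288.8 to 342.4 CPM in cat2 gox2 under high CO2, 156.1 to 174.3 CPM in cat2 gox1 after high light and 198.2 to 349.4 CPM in cat2 gox1 under high CO2. For all tested genes, the shares called were 27.7% higher and 29.2% lower in cat2 gox2, and 25.6% and 26.5% in cat2 gox1. The part of these markers in the results was not tested. In whole leaves, a change in cell types and a change of RNA per cell cannot be told apart.

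Transcripts of proteasome subunits rose together after high light in both lines. In cat2 gox2, 45 of 50 genes were higher and 0 lower at an adjusted p under 0.05, against 27.7% of all tested genes called higher and 29.2% lower. In cat2 gox1, 44 were higher and 0 lower, against 25.6% of all genes called higher and 26.5% lower. With DESeq2 0 members were lower in either line. The median log2 change was 0.78 in cat2 gox2 and 0.81 in cat2 gox1, while the median over all genes was -0.09 and -0.06. Without cat2 gox2 high light library 2, 44 were higher in cat2 gox2 and 44 in cat2 gox1, and without all number 3 libraries 46 and 45. The same 44 genes were higher in both lines. With edgeR, PBB1 was called in cat2 gox2 and not in cat2 gox1, and PAA1, PAC1, RPT6A, RPN1B and RPN2A were called in neither. DESeq2 called PBB1 (adjusted p = 0.00135) and RPN2A (adjusted p = 0.000551) higher in cat2 gox1 as well, and RPN1B higher in cat2 gox2 (adjusted p = 0.0445). At least 2-fold rises were called for 15 genes in cat2 gox2 and 17 in cat2 gox1, against 16.8% and 14.7% of all genes. The libraries did not overlap and were higher after high light for 45 genes in cat2 gox2 and 49 in cat2 gox1, against 30.8% and 28.9% of all genes. Upper quartile scaling, which moves the median of all genes by -0.213 in cat2 gox2, leaves 40 genes higher and calls PAA1 lower in that line. Relative to the median of all genes, the members' median was 0.87 higher in cat2 gox2 and 0.87 higher in cat2 gox1, a value that a scaling cannot move.

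The summed level of the 50 genes was 6776 ± 225 CPM in cat2 gox2 after high light and 3437 ± 245 CPM under high CO2 (SD, n = 3 each). It was 6421 ± 115 CPM in cat2 gox1 after high light and 3308 ± 158 CPM under high CO2. The lowest high light library, at 6325 CPM, lay above the highest high CO2 library, at 3719 CPM. When libraries of equal number were set against each other, 47 to 50 of the 50 genes were higher after high light in each of the 6 comparisons, while 46.2% to 49.4% of all genes were. Between the change and the level under high CO2, the Spearman coefficient across genes was -0.0866 in cat2 gox2 and -0.0923 in cat2 gox1, and genes are not independent replicates.

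**Figure D1:**
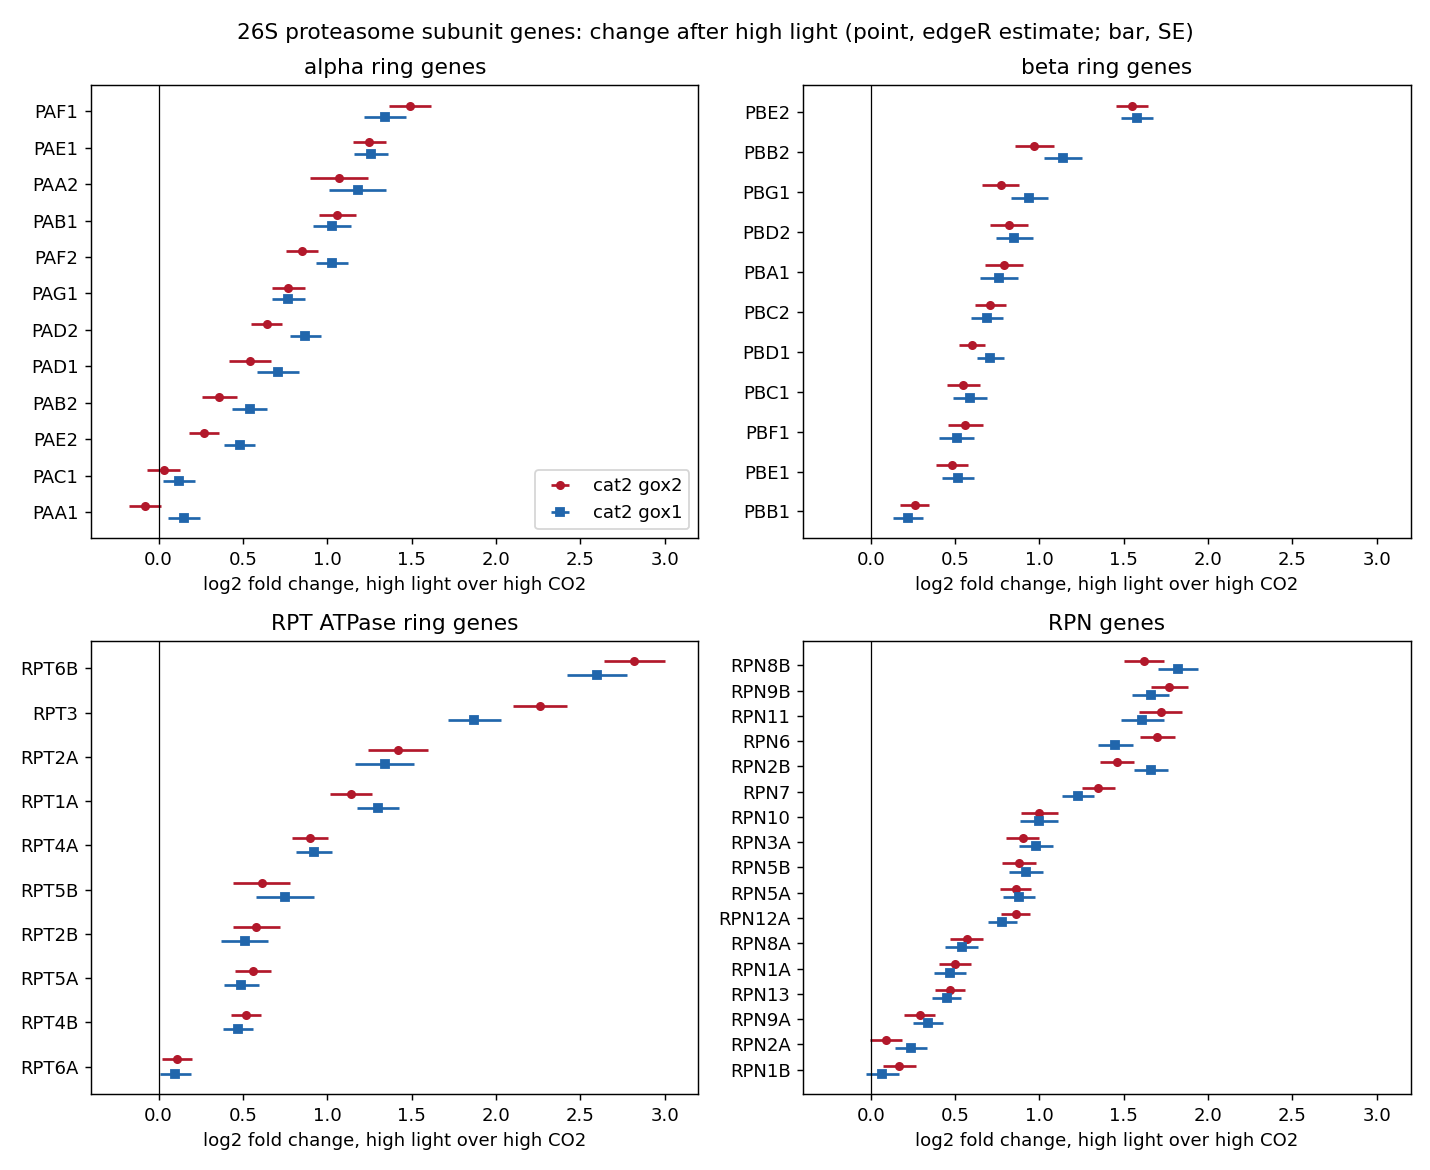
Log2 fold change of each of the 50 genes, high light over high CO2, in cat2 gox2 (circles) and cat2 gox1 (squares), with SE bars, grouped by class. RPT6B and RPT3 lie farthest right at 2.82 and 2.26 in cat2 gox2, and PAA1 and PAC1 lie near 0.

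In the alpha ring, 10 of 12 genes rose in each line, with a median log2 change of 0.71 in cat2 gox2 and 0.82 in cat2 gox1. The shares to set beside the counts of each class are 27.7% of all genes called higher in cat2 gox2 and 25.6% in cat2 gox1. PAF1, an alpha6 gene, had 204, 209 and 231 CPM in cat2 gox2 after high light, against 72.3, 69.6 and 86.5 CPM under high CO2. In cat2 gox1 it had 179, 199 and 180 CPM after high light, against 68, 71.3 and 81.5 CPM under high CO2. The groups did not overlap, and the log2 rise was 1.49 (SE 0.124, adjusted p = 2.42e-06) in cat2 gox2 and 1.34 (SE 0.124, adjusted p = 8.52e-06) in cat2 gox1. PAE1, an alpha5 gene, rose by 1.25 in cat2 gox2 and 1.26 in cat2 gox1. PAA1, an alpha1 gene, had 75.7, 71.7 and 77.1 CPM in cat2 gox2 after high light and 73, 76.9 and 86.9 CPM under high CO2, with log2 changes of -0.08 in cat2 gox2 (adjusted p = 0.497) and 0.15 in cat2 gox1 (adjusted p = 0.195). These libraries overlapped in cat2 gox2. PAC1, the sole alpha3 gene of the list, had log2 changes of 0.03 in cat2 gox2 and 0.12 in cat2 gox1, with 117, 118 and 126 CPM in cat2 gox2 after high light and 111, 116 and 128 CPM under high CO2.

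In the beta ring, 11 of 11 genes rose in cat2 gox2 and 10 of 11 in cat2 gox1, with a median of 0.71 in each line. PBE2, which encodes a beta5 subunit carrying a peptidase site, had 45.6, 48.9 and 49.8 CPM in cat2 gox2 after high light, against 15.7, 15.8 and 17.8 CPM under high CO2. Its libraries in cat2 gox1 had 36.7, 39.3 and 38.3 CPM after high light, against 11.9, 12.8 and 13.4 CPM under high CO2. The log2 rise was 1.55 (SE 0.0934, adjusted p = 2.31e-07) in cat2 gox2 and 1.58 (SE 0.0939, adjusted p = 3.89e-07) in cat2 gox1. PBB2, a beta2 gene, rose by 0.97 in cat2 gox2 and 1.14 in cat2 gox1. PBB1, its paralog, had 94.3, 92.9 and 105 CPM in cat2 gox2 after high light and 80.7, 79.2 and 83.3 CPM under high CO2, a log2 rise of 0.26 (SE 0.0884, adjusted p = 0.0242). In cat2 gox1 its change was 0.22 (adjusted p = 0.0556), with 90, 90.3 and 93.9 CPM after high light, against 78, 78.4 and 79 CPM under high CO2, and the responses of the lines differed by 0.04 (unadjusted p = 0.733 in edgeR). With edgeR PBB1 was also called in cat2 gox1 under 4 other settings, with RLE size factors (adjusted p = 0.0299), library totals only (adjusted p = 0.0396), the replicate block (adjusted p = 0.0463) and without the number 3 libraries (adjusted p = 0.0396). The cat2 gox2 call of PBB1 is lost in 5 of the alternatives tried, among them without cat2 gox2 high light library 3 (log2 0.21, adjusted p = 0.0985). The cat2 gox2 calls of PAE2 and RPN9A are likewise lost in 5 alternatives each, 4 of them with a single library of that line left out, with adjusted p of 0.0537 to 0.0812 for PAE2 and 0.0535 to 0.0636 for RPN9A in those 4.

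In the RPT ATPase ring, 9 of 10 genes rose in each line, with a median of 0.76 in cat2 gox2 and 0.83 in cat2 gox1. RPT6B showed the largest log2 change of the 50 genes. It had 313, 288 and 298 CPM in cat2 gox2 after high light, against 38.4, 35.1 and 53.4 CPM under high CO2. The cat2 gox1 libraries had 254, 278 and 241 CPM after high light, against 38.8, 37.8 and 50.8 CPM under high CO2. The log2 rise was 2.82 (SE 0.18, adjusted p = 3.31e-07) in cat2 gox2 and 2.60 (SE 0.178, adjusted p = 1.08e-06) in cat2 gox1. RPT3, which has no paralog in the list, had 487, 454 and 471 CPM in cat2 gox2 after high light, against 90.6, 88.1 and 115 CPM under high CO2, and its log2 rise was 2.26 there and 1.87 in cat2 gox1. RPT6A, the neighbour and paralog of RPT6B, had 61, 56 and 56 CPM in cat2 gox2 after high light and 56.9, 54.2 and 49.5 CPM under high CO2. Its log2 change was 0.11 (adjusted p = 0.327) in cat2 gox2 and 0.10 (adjusted p = 0.353) in cat2 gox1.

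RPN genes had the highest class median, 0.88 in cat2 gox2 and 0.92 in cat2 gox1, and 15 of 17 rose in each line. RPN8B had 43.9, 46.9 and 48.6 CPM in cat2 gox2 after high light, against 13.1, 15.6 and 16.8 CPM under high CO2. Its cat2 gox1 levels were 45.4, 53.5 and 55.1 CPM after high light, against 14, 14.1 and 15.5 CPM under high CO2. The log2 rise was 1.62 in cat2 gox2 and 1.82 in cat2 gox1. RPN9B had 102, 113 and 115 CPM in cat2 gox2 after high light, against 30.7, 31.4 and 35.1 CPM under high CO2, a log2 rise of 1.77, and 1.66 in cat2 gox1. RPN11, the deubiquitinase of the lid, rose by 1.72 in cat2 gox2 and 1.61 in cat2 gox1. RPN6, which bridges lid and core, rose by 1.70 in cat2 gox2 and 1.45 in cat2 gox1. Of the ubiquitin receptors, RPN10 rose by 1 in each line, and RPN13 by 0.47 in cat2 gox2 and 0.45 in cat2 gox1. RPN1B, a scaffold gene, had 48.3, 50.5 and 43 CPM in cat2 gox2 after high light and 41.4, 40.8 and 43.5 CPM under high CO2. Its log2 change was 0.17 (adjusted p = 0.159) in cat2 gox2 and 0.07 (adjusted p = 0.566) in cat2 gox1, and its libraries overlapped in both lines. Without the number 3 libraries its cat2 gox2 change was called (0.36, adjusted p = 0.0153).

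The size of the response differed between paralogs. Of 18 pairs, 10 had mean light changes more than 0.5 apart on the log2 scale, led by RPT6 (2.60), RPN2 (1.4), RPN9 (1.39), RPN8 (1.17), alpha1 (1.09) and beta5 (1.07). Differences between paralogs are descriptions, since they were not tested. RPN2B had 146, 131 and 134 CPM in cat2 gox2 after high light, against 49.1, 50.9 and 49.1 CPM under high CO2. In cat2 gox1 it had 143, 162 and 146 CPM after high light, against 51, 44.9 and 46.4 CPM under high CO2. RPN2A had 104, 102 and 96.5 CPM in cat2 gox2 after high light and 92.9, 99.7 and 91.4 CPM under high CO2, so its libraries overlapped, and its log2 change was 0.09 there and 0.24 in cat2 gox1 (adjusted p = 0.0543). The cat2 gox1 change passed the threshold with RLE size factors (adjusted p = 0.0242), with library totals only (adjusted p = 0.0271) and with DESeq2. RPN9A had 36.6, 40.8 and 40.8 CPM in cat2 gox2 after high light and 34.7, 31.9 and 30 CPM under high CO2, a log2 rise of 0.29 (adjusted p = 0.0174). RPN8A had 99.5, 98.2 and 97.5 CPM after high light, against 70.1, 67.4 and 61.8 CPM under high CO2, in cat2 gox2, a rise of 0.57. In the alpha1 pair, PAA2 had 178, 171 and 196 CPM in cat2 gox2 after high light and 76, 75.7 and 107 CPM under high CO2, a rise of 1.07, beside the values of PAA1 given above. PBE1 had 113, 119 and 116 CPM in cat2 gox2 after high light and 77.8, 82.1 and 89.9 CPM under high CO2, a rise of 0.48.

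**Figure D2:**
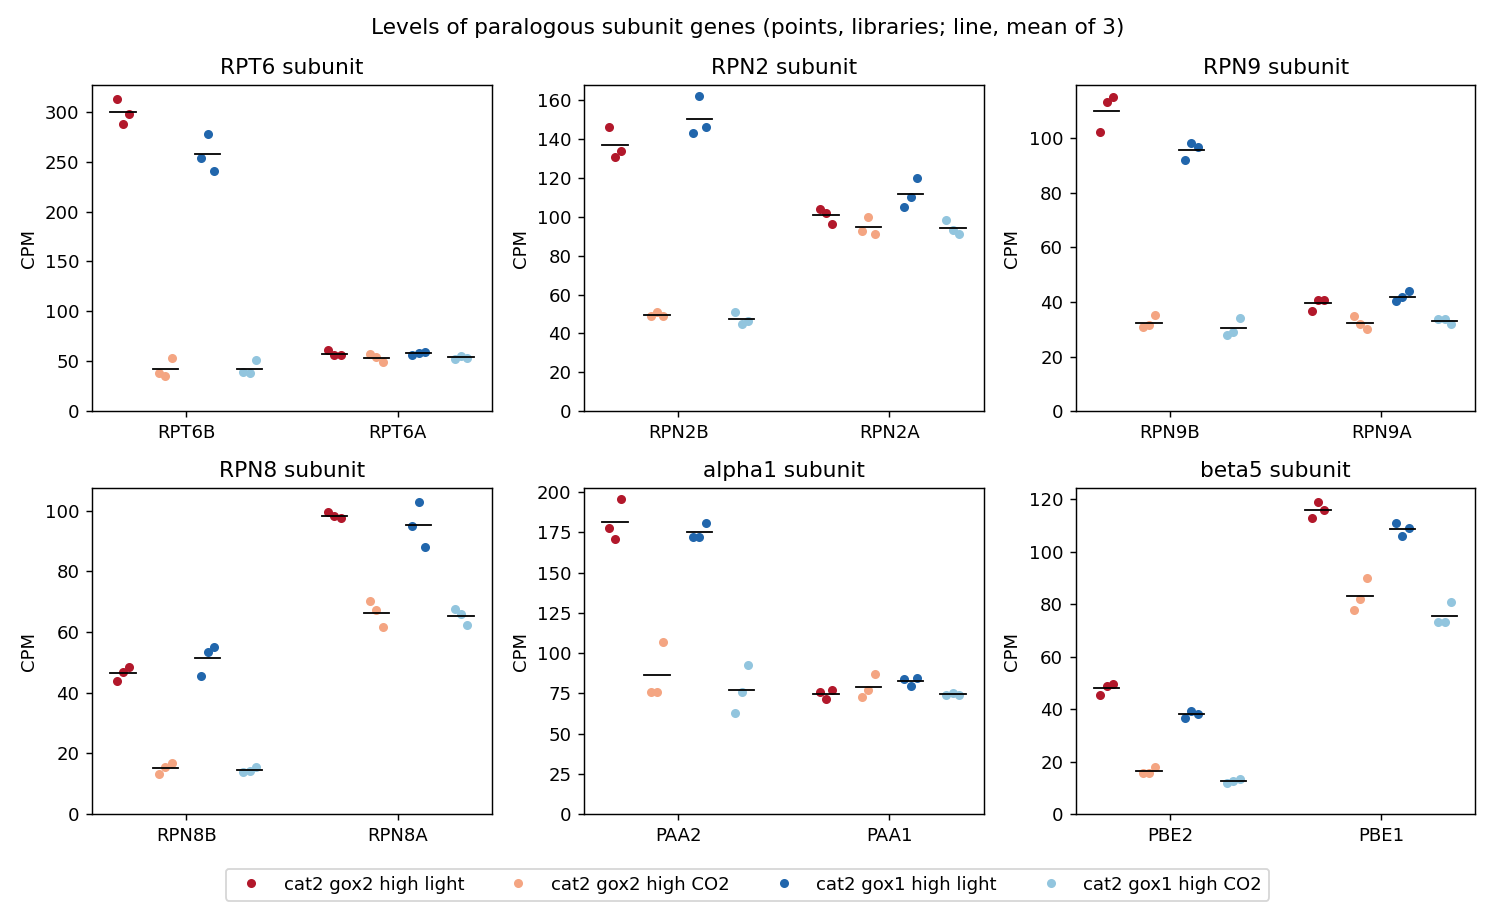
CPM of 6 paralog pairs in each library, by group, with a line at the mean of 3 libraries. RPT6B stands at 288 to 313 CPM in cat2 gox2 after high light and RPT6A at 56 to 61 CPM.

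The other 4 pairs lay 0.60 to 0.88 apart. PAE1 had 94, 93.3 and 104 CPM in cat2 gox2 after high light and 40.4, 39.4 and 42.7 CPM under high CO2, while PAE2 had 55.8, 54.3 and 55 CPM after high light, against 43.8, 44.4 and 48.3 CPM under high CO2. RPT2A had 390, 373 and 417 CPM in cat2 gox2 after high light and 133, 129 and 178 CPM under high CO2, while RPT2B had 54.2, 64.9 and 55.8 CPM after high light, against 41.6, 42.7 and 32.8 CPM under high CO2. Of these 4 pairs, RPT2 and alpha2 (PAB1 and PAB2) had the larger change in the paralog that was more abundant under high CO2. PBB2 had 86.8, 91.5 and 95.1 CPM in cat2 gox2 after high light and 42.5, 42.2 and 54.5 CPM under high CO2. PAB1 had 113, 114 and 128 CPM in cat2 gox2 after high light and 55.1, 52.7 and 62.3 CPM under high CO2, while PAB2 had 49.5, 58.6 and 57 CPM after high light, against 40.6, 43.2 and 44.9 CPM under high CO2. The PAB2 rise of 0.36 in cat2 gox2 (adjusted p = 0.0108) becomes 0.15 (adjusted p = 0.246) with upper quartile scaling.

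Measured per kb of exon, the share of a pair that came from the gene with the larger change was higher after high light, without overlap of libraries, in 14 of 18 pairs in cat2 gox2 and 13 in cat2 gox1. That direction follows from naming the gene with the larger change. This summary and the one by subunit below were chosen after the values were seen. RPT6B made up 87.6 ± 0.223% of RPT6 transcripts in cat2 gox2 after high light, against 51.3 ± 7.02% under high CO2, and 85.8 ± 1.05% against 51.4 ± 4.37% in cat2 gox1 (SD, n = 3 each). RPN2B made up 58.1 ± 1.19% in cat2 gox2 after high light, against 35 ± 0.568% under high CO2, so it was the major gene of its pair after high light and the minor one under high CO2. PBE2 remained the minor gene at 33.4 ± 0.735% in cat2 gox2 after high light, against 19.3 ± 0.338% under high CO2. RPT6A and RPT6B are tandem neighbours on chromosome 5, and 5.93% and 8.32% of their 50-base words also occur in another member or listed gene. No other member shared more than 0.88%, so counts of the RPT6 pair are the ones that shared reads could touch most.

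**Figure D3:**
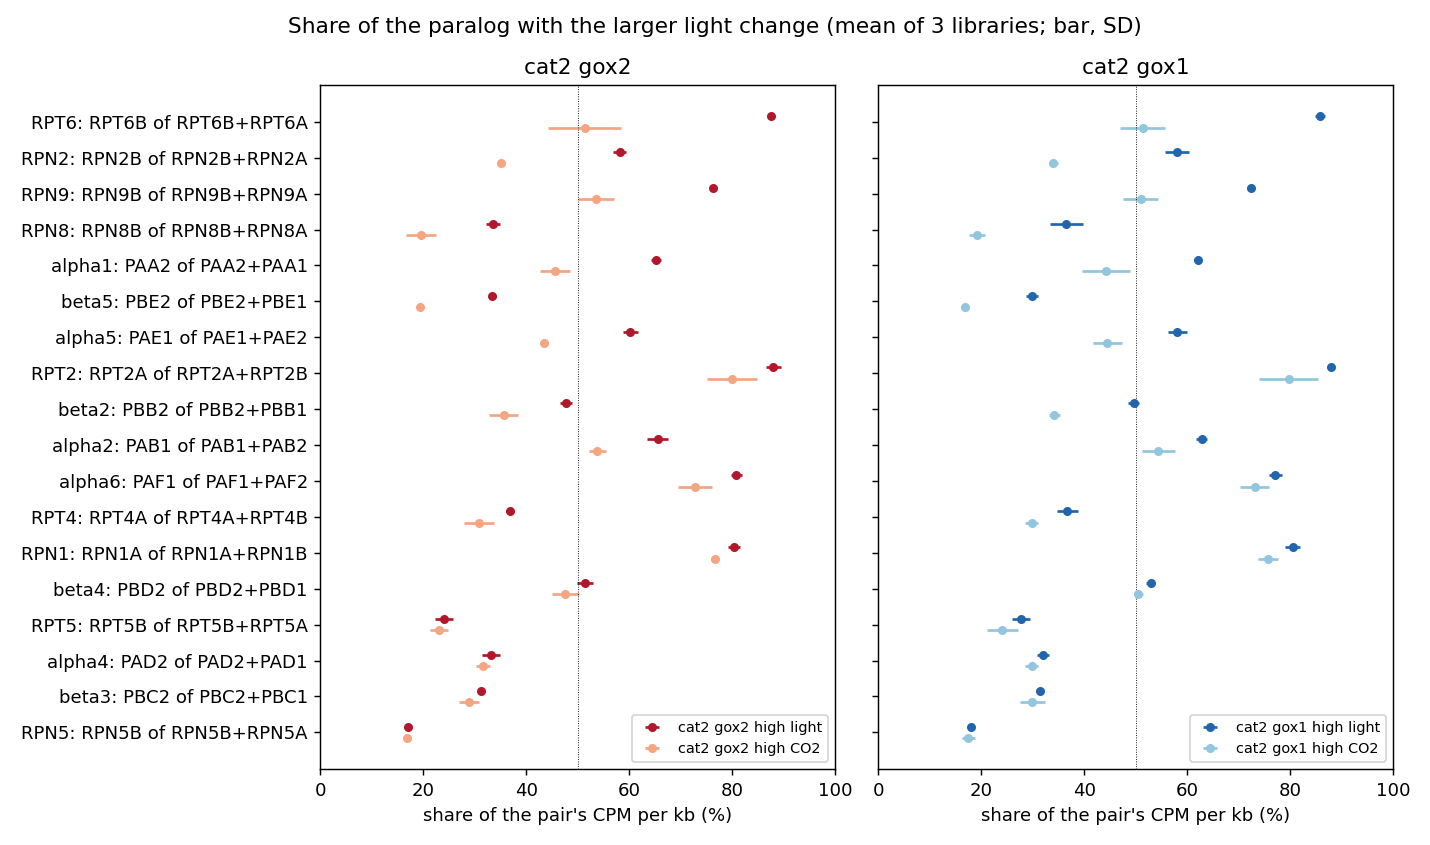
Share of each pair's CPM per kb that came from the paralog with the larger light change, in cat2 gox2 (left) and cat2 gox1 (right), mean of 3 libraries with SD bars. For RPT6 the share is 87.6% after high light and 51.3% under high CO2 in cat2 gox2, and for RPN5 the points nearly coincide.

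Summed over the paralogs among them, the 50 genes stand for 32 subunits. These sums leave out the further loci AT4G15165 (PAC2, alpha3), AT1G53780 (RPT1B), RPN3B and RPN12B. In cat2 gox2, AT4G15165 had 7.74 CPM per kb after high light and 1.83 under high CO2. RPN3B had 15.3 and 13.4 CPM per kb there. The level per kb was higher after high light without overlap for 31 subunits in cat2 gox2 and 32 in cat2 gox1. Of all tested genes taken singly, 30.8% in cat2 gox2 and 28.9% in cat2 gox1 were so, and no share for sums of other genes was computed. The median fold of the subunits was 1.72 in cat2 gox2 and 1.81 in cat2 gox1. RPT3 reached 228 ± 7.95 CPM per kb in cat2 gox2 after high light, against 47.4 ± 7.24 under high CO2, a 4.81-fold difference, and RPT6 a 4.18-fold one. Alpha3, here PAC1 alone, had 98.3 ± 4.12 CPM per kb in cat2 gox2 after high light, against 96.5 ± 6.93 under high CO2. This was 1.02-fold, with overlapping libraries. The levels of the subunits were unequal in all groups, with a coefficient of variation across subunits of 39.1% in cat2 gox2 after high light, 36.9% in cat2 gox2 under high CO2, 36.7% in cat2 gox1 after high light and 35.9% in cat2 gox1 under high CO2. RPN13 had the lowest level in each group, 17.6 CPM per kb in cat2 gox2 after high light.

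Between the lines, edgeR called no subunit gene, while DESeq2 called PBE2 after high light. Under high CO2 0 of 50 were higher or lower in cat2 gox2 than in cat2 gox1, against 0.0158% of all genes higher and 0% lower, with 3 members, PBE2, PBD1 and PAD2, at an unadjusted p under 0.05 in edgeR and 0 called by DESeq2. After high light 0 were called, against 5.27% of all genes higher in cat2 gox2 and 1.28% lower, with 3 members at an unadjusted p under 0.05. PBE2 came nearest, higher in cat2 gox2 by 0.34 (adjusted p = 0.0511), with the high light levels given above. Under high CO2 it was higher in cat2 gox2 by 0.37 (unadjusted p = 0.00217, adjusted p = 1 in edgeR), and its light responses in the lines differed by -0.03. It was called by DESeq2 (log2 0.36, adjusted p = 0.00943), with the stricter filter (adjusted p = 0.0425), with the replicate block (adjusted p = 0.0334), and without library 3 of cat2 gox1 (adjusted p = 0.0382) or of cat2 gox2 (adjusted p = 0.0466) under high CO2. For the difference of the light responses, cat2 gox2 minus cat2 gox1, 0 members were called, against 0.996% of all genes higher and 0.0422% lower, and 0 had an unadjusted p under 0.05. DESeq2 called 0 as well.

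The smallest adjusted p for that difference was 0.624, for RPT3, whose response was 0.39 larger in cat2 gox2 (SE 0.215). It was followed by PAD2 (-0.22, SE 0.127), RPN6 (0.25, SE 0.146), PAA1 (-0.23, SE 0.133), PAE2 (-0.20, SE 0.128) and RPN2B (-0.20, SE 0.139). In cat2 gox1, RPT3 had 373, 386 and 335 CPM after high light, against 92.6, 85.6 and 120 CPM under high CO2. RPN6 had 324, 285 and 322 CPM in cat2 gox2 after high light, against 95.6, 91.5 and 99.4 CPM under high CO2. In cat2 gox1 it had 252, 281 and 251 CPM after high light, against 94.5, 93.2 and 100 CPM under high CO2. PAD2 had 67.2, 63.3 and 66.5 CPM in cat2 gox2 after high light, against 41.1, 39.5 and 45.6 CPM under high CO2. In cat2 gox1 it had 68.1, 62.9 and 67.9 CPM after high light, against 36.1, 35.5 and 37.6 CPM under high CO2.

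Both transcription factors of the proteasome stress response rose. NAC53 had 131, 101 and 129 CPM in cat2 gox2 after high light, against 7.47, 7.62 and 11.1 CPM under high CO2. NAC53 in cat2 gox1 had 67.9, 92 and 70.9 CPM after high light, against 8.38, 7.66 and 12.9 CPM under high CO2. The log2 rise was 3.78 (SE 0.247, adjusted p = 3.93e-07) in cat2 gox2 and 2.99 (SE 0.238, adjusted p = 2.92e-06) in cat2 gox1. NAC78 had 246, 245 and 258 CPM in cat2 gox2 after high light, against 55.3, 50.5 and 59.8 CPM under high CO2, a rise of 2.18, and 1.66 in cat2 gox1. The responses were larger in cat2 gox2 by 0.79 for NAC53 and by 0.52 for NAC78, and neither was called. After high light, edgeR put NAC53 0.64 (adjusted p = 0.117) and NAC78 0.41 (adjusted p = 0.0991) higher in cat2 gox2 than in cat2 gox1. DESeq2 called this difference for NAC78 (0.43, adjusted p = 0.0436). With edgeR it was called for NAC53 with only the groups compared (adjusted p = 0.0464) and without cat2 gox1 high CO2 library 3 (adjusted p = 0.0457). All 6 tested regulators and assembly factors rose in each line, against 27.7% of all genes called higher in cat2 gox2 and 25.6% in cat2 gox1. PA200, an alternative proteasome activator, rose by 2.61 in cat2 gox2 and 2.03 in cat2 gox1. AT2G26780 had the smallest rise in cat2 gox2, 0.27 (adjusted p = 0.0493), and loses that call in 14 of 21 alternatives. In cat2 gox1 the rise of PTRE1, also on this list, is lost in 4 of 21 and that of AT2G26780 in 2 of 21. In cat2 gox2 the rises of PTRE1 and UMP1A are lost in 1 of 21 each. The locus AT5G38650 is listed at 0 in all libraries.

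**Figure D4:**
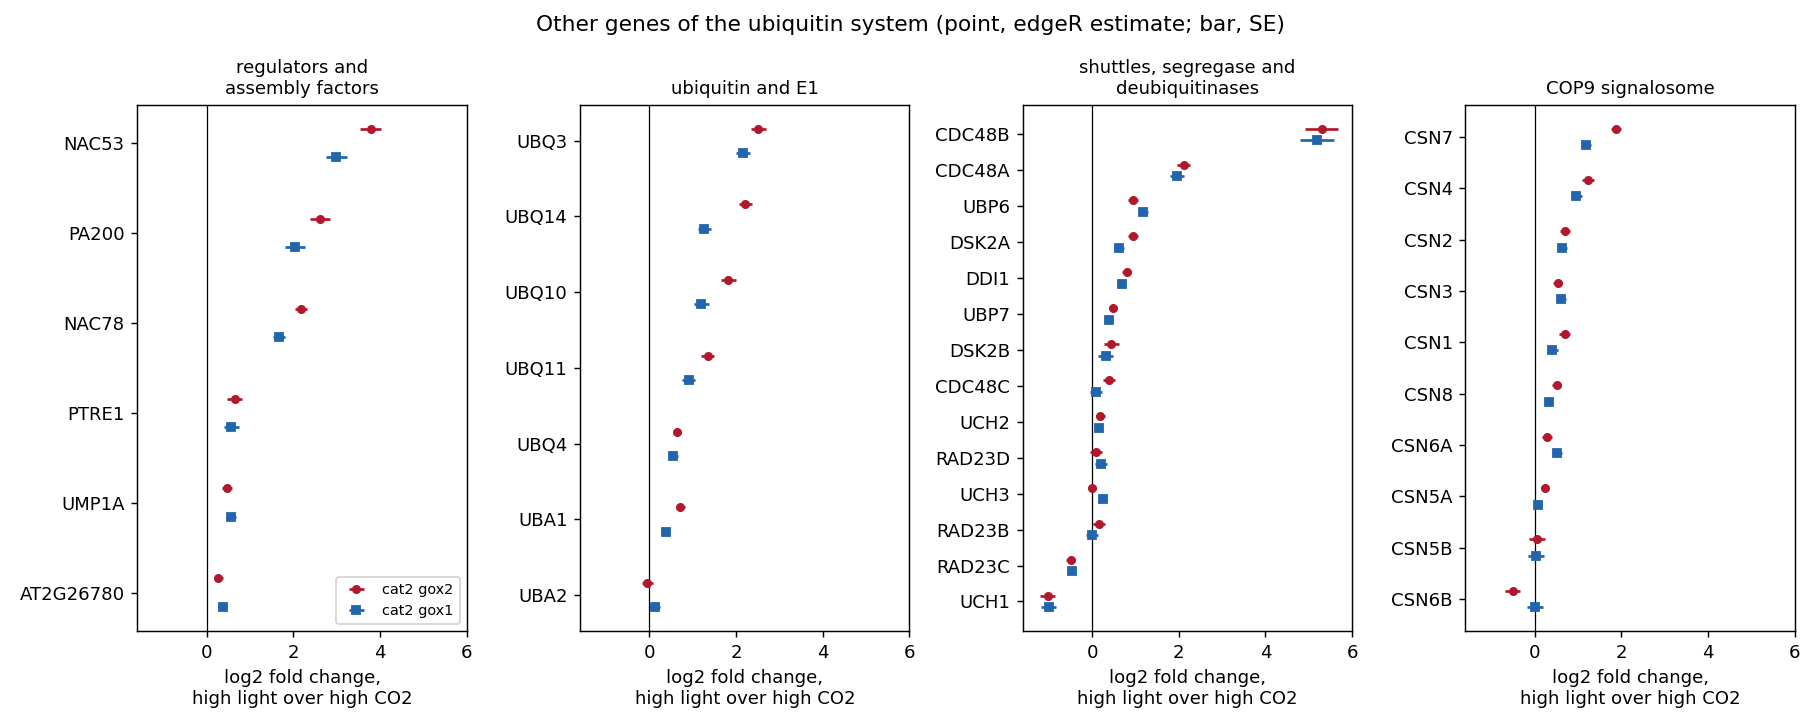
Log2 fold change, high light over high CO2, of 4 lists of genes of the ubiquitin system in cat2 gox2 (circles) and cat2 gox1 (squares), with SE bars. CDC48B lies farthest right at 5.30 in cat2 gox2 and 5.19 in cat2 gox1, and UCH1 farthest left, at -1.02 in cat2 gox2.

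Of 7 ubiquitin and E1 genes, 6 rose in each line and 0 fell. Among all tested genes, 27.7% were called higher and 29.2% lower in cat2 gox2, and 25.6% and 26.5% in cat2 gox1. UBQ3, a polyubiquitin gene, rose by 2.51 in cat2 gox2 and 2.16 in cat2 gox1, and UBQ14 by 2.21 in cat2 gox2 and 1.27 in cat2 gox1. Polyubiquitin genes hold near-identical repeats, so their counts are uncertain. UBQ14 was higher in cat2 gox2 than in cat2 gox1 after high light by 1.01 (adjusted p = 0.00179), while the difference of the responses, 0.93, was not called by edgeR (adjusted p = 0.0582) and was by DESeq2 (adjusted p = 0.00115). Of 14 shuttles, segregases and deubiquitinases, 8 rose and 2 fell in cat2 gox2 and 7 rose and 2 fell in cat2 gox1. CDC48B, a paralog of the segregase ATPase, had 818, 605 and 768 CPM in cat2 gox2 after high light, against 15.4, 12.8 and 27.5 CPM under high CO2, and CDC48A rose by 2.11 in cat2 gox2 and 1.96 in cat2 gox1. UCH1, a ubiquitin hydrolase, fell by 1.02 in cat2 gox2 and by 1 in cat2 gox1. The DSK2B call in cat2 gox2 is lost in 13 of 21 alternatives and that of CDC48C in 5 of 21. In cat2 gox1 the rise of UCH3 is lost in 7 of 21. With upper quartile scaling, edgeR called UCH3 lower in cat2 gox2 (-0.22, adjusted p = 0.0456).

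The COP9 signalosome is a complex built on the same subunit plan as the proteasome lid. Of its 10 genes, 7 rose and 1 fell in cat2 gox2 and 7 rose and 0 fell in cat2 gox1. Over all tested genes, 27.7% were called higher and 29.2% lower in cat2 gox2, and 25.6% and 26.5% in cat2 gox1. The medians of the COP9 genes were 0.52 in cat2 gox2 and 0.47 in cat2 gox1. CSN7 rose by 1.88 in cat2 gox2 and 1.19 in cat2 gox1 and was higher in cat2 gox2 than in cat2 gox1 after high light by 0.82 (adjusted p = 0.00126). The difference of its responses, 0.69, was not called by edgeR (adjusted p = 0.0709) and was by DESeq2 (adjusted p = 0.00329) and without cat2 gox1 high CO2 library 3 (adjusted p = 0.0492). In cat2 gox1 the rises of CSN8 and CSN1 are lost in 6 of 21 alternatives for CSN8 and in 2 of 21 for CSN1. CSN4 rose by 1.23 in cat2 gox2 and 0.96 in cat2 gox1. CSN6B was the gene that fell, by 0.51 in cat2 gox2, a call lost in 6 alternatives, and the rise of CSN5A in that line is lost in 13. Among 6 further loci related to subunits, 4 rose and 1 fell in each line. In cat2 gox2 the rise of DSS1I is lost in 6 of 21 alternatives and that of AT1G53780 in 4 of 21, and in cat2 gox1 the fall of RPN12B is lost in 3 of 20. AT4G15165 (PAC2), a paralog of PAC1, had 5.94, 7.75 and 7.38 CPM in cat2 gox2 after high light. Under high CO2 it had 1.26, 1.92 and 1.82 CPM there, a rise of 2.07. AT1G53780 (RPT1B), a paralog of RPT1A, rose by 0.67 in cat2 gox2. The gene that fell, RPN12B, had 0.359, 0.383 and 0.365 CPM in cat2 gox2 after high light and 1.37, 1.03 and 0.786 CPM under high CO2.

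The 250 bases before each annotated gene start were searched on both strands for TGGGC, the core of the element that NAC53 and NAC78 are known to bind. It occurred in 24 of 50 members (48.0%), against 22.7% of the 27443 windows of all protein-coding genes. All members passed the filter on low counts, and a share over the tested genes alone was not computed. In a window of 250 bases to either side of the start, chosen after the first count was seen, it occurred in 34 members (68.0%), against 33.7%. The heat shock element core GAANNTTC occurred in 5 of 50 members, against 9.6% of all windows, the telo box AAACCCTA in 3, against 4.5%, and the mitochondrial dysfunction motif in 0, against 0.7%. Motifs were counted apart, whether or not they overlapped. Members with TGGGC in the 250 bases before the start had a median light change of 0.92, and those without it there 0.69. RPT6B had none in either window, while RPN8A had 4 and RPN1B 5, and no test related matches to changes.

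These 3 pairs are printed because their paralogs differ in response. A further reason is that, in the 250 bases, the gene with the larger change alone holds the element in the first and second pair. Neither RPT6 gene holds it there. This choice of pairs was made after the values were seen. The sequences are those of TAIR10.1 in RefSeq, 5′ to 3′ on the gene's strand, with TGGGC or its complement GCCCA in capitals. RPN2B lies at chr1:1349830-1350079 (+), RPN2A at chr2:13879709-13879958 (+), PBE2 at chr3:9652937-9653186 (-), PBE1 at chr1:4451940-4452189 (+), RPT6B at chr5:6756383-6756632 (+) and RPT6A at chr5:6751548-6751797 (+).
RPN2B: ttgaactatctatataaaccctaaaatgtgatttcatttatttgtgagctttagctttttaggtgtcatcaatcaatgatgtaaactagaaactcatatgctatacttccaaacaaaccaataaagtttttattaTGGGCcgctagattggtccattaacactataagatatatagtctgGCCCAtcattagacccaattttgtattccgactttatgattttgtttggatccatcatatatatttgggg
RPN2A: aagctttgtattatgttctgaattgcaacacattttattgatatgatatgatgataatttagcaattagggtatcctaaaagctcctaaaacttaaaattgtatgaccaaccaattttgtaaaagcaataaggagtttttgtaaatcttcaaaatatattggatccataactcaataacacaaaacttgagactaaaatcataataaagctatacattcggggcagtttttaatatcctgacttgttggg
PBE2: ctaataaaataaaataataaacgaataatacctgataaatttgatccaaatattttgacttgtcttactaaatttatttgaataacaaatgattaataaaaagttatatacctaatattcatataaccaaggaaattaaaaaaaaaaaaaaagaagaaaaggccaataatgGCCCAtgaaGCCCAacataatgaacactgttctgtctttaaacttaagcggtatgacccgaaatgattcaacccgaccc
PBE1: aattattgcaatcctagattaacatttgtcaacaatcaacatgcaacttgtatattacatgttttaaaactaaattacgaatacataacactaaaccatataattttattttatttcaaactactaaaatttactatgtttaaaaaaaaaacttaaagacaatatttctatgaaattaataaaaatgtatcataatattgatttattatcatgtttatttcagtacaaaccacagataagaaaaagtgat
RPT6B: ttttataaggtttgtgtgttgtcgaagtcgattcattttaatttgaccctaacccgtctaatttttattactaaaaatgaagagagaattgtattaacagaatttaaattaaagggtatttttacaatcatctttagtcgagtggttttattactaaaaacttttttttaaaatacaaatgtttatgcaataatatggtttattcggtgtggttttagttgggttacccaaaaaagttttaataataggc
RPT6A: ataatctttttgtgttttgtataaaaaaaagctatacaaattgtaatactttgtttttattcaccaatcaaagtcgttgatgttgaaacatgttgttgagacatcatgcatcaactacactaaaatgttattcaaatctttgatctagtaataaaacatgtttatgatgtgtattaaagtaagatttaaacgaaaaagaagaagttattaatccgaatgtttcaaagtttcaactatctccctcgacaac
RPN2B and PBE2, which hold the element 2 times each, rose in cat2 gox2 by 1.46 for RPN2B and 1.55 for PBE2. RPN2A and PBE1, which lack it in these 250 bases, had changes of 0.09 for RPN2A and 0.48 for PBE1. Counts in the wider window are not given singly for the RPN2 and PBE genes. The RPN2A window ends in tggg, and the base after it is not shown. RPT6B rose by 2.82 and lacks it. Over the 18 pairs, the gene with the larger change alone held the element in the 250 bases in 6 pairs. They include RPN5, whose mean light changes of 0.90 and 0.87 lay only 0.03 apart. The gene with the smaller change alone held it in 2, PAF2 beside PAF1 (0.47 apart) and PBD1 beside PBD2 (0.17 apart). Both genes held it in 4 pairs and neither in 6. A match is a description of the letters in this window.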

How the data were processed

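Leaf mRNA of 12 libraries in 4 groups was measured. The values deposited by the authors are unscaled whole-number counts of reads assigned to each gene. Per the submitters' processing notes, the authors used Trim Galore 0.3.3, TopHat2 2.1.0 with TAIR10, and featureCounts of Subread 1.4.6. How multi-mapping reads and strand were handled is not given in the sources used here. A pair of rows naming no gene was left out.

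Counts were tested with edgeR 4.0.16 (R 4.3.3), two-sided quasi-likelihood test, TMM scaling, filterByExpr (minimum count 10, total 15), 1 mean per group over all libraries, and Benjamini-Hochberg adjustment over 18967 genes at 0.05. SEs were derived from the log2 change and its F statistic. CPM per kb uses exon length in TAIR10.1. Labels call the libraries biological repeats, and p-values measure the spread between these libraries. The test was checked on simulated counts, with criteria revised after a first run failed them. DESeq2 1.42.0, other scalings, filters and left-out libraries were tried.

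The members and lists were chosen with earlier results of these data known. Values are printed for the 2 largest and the smallest mean light change per class, pairs more than 0.5 apart, the 6 smallest interaction p-values, and the largest called changes per list. A gene of the ubiquitin system lists is not reported here.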

Additional observations from a re-analysis of the deposited data

How the results depend on the processing

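The counts of subunit genes called higher after high light ran from 40 to 46 in cat2 gox2 and from 43 to 46 in cat2 gox1 over the other settings, and, with each library left out in turn, from 42 to 45 in cat2 gox2 and stayed at 44 in cat2 gox1. Upper quartile scaling called 1 gene lower in cat2 gox2. The median log2 change in cat2 gox2 was 0.57 with upper quartile scaling and 0.91 without the number 3 libraries, and 0.72 to 0.85 with a library left out. In cat2 gox1 it was 0.66 with upper quartile scaling, 0.87 with RLE size factors and with DESeq2, 0.92 with library totals only and 0.95 without the number 3 libraries, and 0.79 to 0.88 with a library left out. After high light, 1 gene, PBE2, was called higher in cat2 gox2 than in cat2 gox1 with the stricter filter, with DESeq2 and with the replicate block, and 0 to 1 with a library left out. The median difference between the lines after high light was -0.06 with library totals only and 0.06 with TMM scaling. The spread that decided which medians are printed here was redefined after its first outcome was seen. The causes were not tested, beyond the shift of all genes that a scaling makes by construction (-0.151 in cat2 gox1 and -0.213 in cat2 gox2 for upper quartile).

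Samples of the same number in different groups had correlated deviations of -0.211 to 0.765 (median 0.2505, 18 correlations), and those of different numbers -0.636 to 0.497 (median -0.1905, 36 correlations). The 6 correlations among number 3 libraries were 0.23 to 0.765. The numbers were not taken as pairs, since not every correlation was over 0.1. With the replicate block, 45 genes were higher in cat2 gox2 and 45 in cat2 gox1, with medians of 0.78 in cat2 gox2 and 0.82 in cat2 gox1. Upper quartile scaling turned the share of higher among called genes to 35.9% in cat2 gox2 and 38.1% in cat2 gox1, against 48.7% in cat2 gox2 and 49.2% in cat2 gox1 with TMM scaling. With 3 libraries a group and 1 time point, small changes may pass unseen. Light and CO2 cannot be told apart.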
